A study of Mus musculus with 12 samples.

Results

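The genes described here are 10 transcripts that are read as the output of ERK signalling: the Sprouty and Spred genes Spry1, Spry2, Spry4 and Spred1, the receptor-level antagonist Il17rd, the MAP kinase phosphatases Dusp4, Dusp5 and Dusp6, and the ETS factors Etv4 and Etv5. They were taken by name from the 22370 named genes on a mouse Agilent array, and all 13 of their probes among the 55681 probes that are not controls were used. The array has 1 probe for 8 of the genes, 2 for Etv4 and 3 for Spred1. Total RNA was measured on 12 one-colour arrays, 1 per sample. The mouse embryonic stem cells (mESC) comprised 4 samples labelled Tbx3-low and 4 labelled Tbx3-high, and the induced pluripotent stem cells (iPSC) comprised 2 samples labelled Tbx3 null and 2 labelled Tbx3 wildtype. Tbx3 encodes a T-box factor that takes part in the pluripotency circuit. How the Tbx3-high and Tbx3-low cells were obtained, the null allele, the strain, the culture medium and the number of clones or cultures behind the samples do not appear in the labels. The p-values therefore measure the spread between these samples, which may be technical.

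ERK is the last kinase of a cascade that runs from FGF receptors through Ras, Raf and MEK. In mouse embryonic stem cells, FGF4 made by the cells themselves drives this cascade, and its activity is known for pushing cells out of the naive state and, in the early embryo, towards primitive endoderm. Active ERK induces its own brakes: Sprouty and Spred proteins act on the steps around Ras and Raf, IL17RD (Sef) acts at the receptor and on the kinases, and the dual-specificity phosphatases remove the activating phosphates from ERK. Etv4 and Etv5 are transcription factors of the PEA3 group of the ETS family and well-known FGF targets in mouse embryos. The levels of these transcripts are used as an indirect readout of the pathway, and no phosphorylated ERK was measured here.

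ETS factors bind DNA around a GGAA core, so promoters of the genes are shown as the stretch in which such letters can be looked up. RefSeq promoters (GRCm38.p6, from 250 bases before to 50 after an annotated start) were at hand for 7 of the 10 genes, with 2 starts for Etv5. Those of Dusp6 (chr10:99262981-99263280, plus strand) and Spry2 (chr14:105896770-105897069, minus strand) belong to genes that were higher in Tbx3-high mESC, and those of Etv5 (chr16:22438319-22438618, minus strand) and Dusp5 (chr19:53528895-53529194, plus strand) to genes with lower values there. Each is written 5′ to 3′ along its gene, and capitals mark CGGAAG or AGGAAG on either strand (CTTCCG or CTTCCT when read on the other).
Dusp6: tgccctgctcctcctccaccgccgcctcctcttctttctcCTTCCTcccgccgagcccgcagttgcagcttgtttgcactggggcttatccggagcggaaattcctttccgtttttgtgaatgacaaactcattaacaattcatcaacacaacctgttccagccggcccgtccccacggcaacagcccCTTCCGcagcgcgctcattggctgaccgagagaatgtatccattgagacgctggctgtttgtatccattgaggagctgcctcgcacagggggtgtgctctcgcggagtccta
Spry2: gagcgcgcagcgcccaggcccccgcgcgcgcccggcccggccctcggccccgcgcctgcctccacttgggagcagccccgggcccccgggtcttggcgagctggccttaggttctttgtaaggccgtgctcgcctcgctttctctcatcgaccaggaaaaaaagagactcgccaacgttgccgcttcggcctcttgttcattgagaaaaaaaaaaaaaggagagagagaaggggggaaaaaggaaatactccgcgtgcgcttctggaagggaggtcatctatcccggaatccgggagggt
Etv5: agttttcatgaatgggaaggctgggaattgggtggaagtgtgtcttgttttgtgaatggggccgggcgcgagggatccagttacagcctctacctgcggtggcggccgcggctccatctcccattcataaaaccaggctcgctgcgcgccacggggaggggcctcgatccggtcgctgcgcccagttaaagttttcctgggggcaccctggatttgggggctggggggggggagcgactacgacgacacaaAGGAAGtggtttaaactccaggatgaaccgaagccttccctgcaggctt
Dusp5: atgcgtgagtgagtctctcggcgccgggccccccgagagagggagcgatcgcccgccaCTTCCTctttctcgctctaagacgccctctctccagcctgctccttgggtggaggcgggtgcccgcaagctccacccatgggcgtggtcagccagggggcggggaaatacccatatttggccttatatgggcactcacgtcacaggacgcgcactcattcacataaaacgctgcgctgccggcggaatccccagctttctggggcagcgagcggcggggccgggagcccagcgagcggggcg
CGGAAG was found in 2 of the 8 promoters of these genes, once in Dusp6 and in 2 copies in Spred1, and in 16.9% of all 32851 promoters of the same length in the table. AGGAAG was found in 3 of the 8, in Dusp6, Dusp5 and the Etv5 start shown, and in 35.4% of all promoters. Neither the AP-1 letters TGANTCA nor the CRE letters TGACGTCA were found in the 8, against 7.8% and 1.8% of all promoters. The searches covered both strands, and the first 2 motifs differ in 1 letter, so no stretch counts as both. A match is only a run of letters, and binding was not measured.

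Levels are given as log2 of the scanner's background-subtracted signal relative to the 75th percentile of the same array, so that 0 is the 75th percentile. Changes are differences between means, each with its standard error (SE) from a limma fit, and a gene is called changed when its Benjamini-Hochberg adjusted p, over all probes tested, is under 0.05. In scanner units that percentile was 314 to 458 for mESC and 699.8 to 1007 for iPSC, and no spot was saturated. Spots well above background made up 55.9% to 64.8% per array in mESC, 68.6% and 68.0% in wild-type iPSC, and 63.0% and 62.4% in the iPSC labelled null. All mESC arrays lay on 1 slide, with Tbx3-low and Tbx3-high in separate columns of it, and all iPSC arrays on another, so the cell systems were not compared directly and group cannot be told apart from column. The 7 pluripotency markers, Pou5f1, Sox2 and Nanog among them, were above background on every array. Zfp42 and Tdgf1 were higher in Tbx3-high mESC by 0.46 and 0.25 (limma adjusted p = 0.00069 and 0.00763). Utf1 changed by -0.29 there (0.0298), the other pluripotency markers did not pass, and none of the 7 passed in iPSC. Summed primitive endoderm markers (6 genes, linear scale relative to the 75th percentile) ran from 0.955 to 1.29 in Tbx3-low and from 1.39 to 1.92 in Tbx3-high mESC, and from 0.366 to 0.368 in null-labelled and from 0.583 to 0.612 in wild-type iPSC. Within each cell system that sum lay in the same order as Spry2 and Etv4 below. Gata6, Sox17 and Pdgfra passed in both systems in that direction, with Pdgfra not well above background under the null label. Gata4 and Dab2 passed in neither. Sox7 had the opposite sign in both and did not pass (-0.16 in mESC, limma adjusted p = 0.514, and 0.21 under the null label, 0.574). In bulk RNA, more cells of a type and more RNA per cell cannot be told apart. Other lineage markers differed between the groups too. Summed trophoblast markers (5 genes) ran from 39.8 to 41.8 in Tbx3-low and from 12.7 to 15.6 in Tbx3-high mESC, and from 26.6 to 30.6 in null-labelled and from 19.6 to 21.5 in wild-type iPSC, with Elf5 on no array. The brightest in mESC were Tfap2c (mean level 4.61 in Tbx3-low and 3.21 in Tbx3-high) and Krt18 (3.96 and 2.24). Gata3 was at -0.50 and -2.08. Cdx2 was well above background on 1 of 4 Tbx3-low and 0 of 4 Tbx3-high arrays and was not tested in mESC. Within that iPSC sum the markers did not move alike: Tfap2c, Krt18 and Gata3 were higher under the null label by 0.47, 0.72 and 0.78 on the log2 scale (adjusted p = 0.0161, 0.00707 and 0.00074), while Cdx2 was at -2.51 there and -0.87 in the wild type (change -1.64, adjusted p = 0.0541, and 1e-06 to 0.0484 in 8 alternatives that called it). The Tfap2c call ended with quantile normalization (0.0588), with the iPSC arrays alone (0.0709) and without null replicate 1 or wild-type replicate 1 (0.106 and 0.112), and that of Krt18 with the iPSC arrays alone (0.0779). In iPSC the mesoderm sum (3 genes) was 0.123 to 0.182 under the null label and 1.32 to 2.3 in the wild type, with T above background, while Mixl1 and Mesp1 were not well above background there. The neural sum (4 genes) was 7.57 to 8.12 under the null label and 3.03 to 3.3 in the wild type, and the fibroblast sum (7 genes) 0.958 to 0.989 and 1.67 to 1.83. Col1a1 fell by 2.32 ± 0.15 under the null label (adjusted p = 3.2e-06) and rose by 1.54 ± 0.11 in Tbx3-high mESC (2.6e-06). It was the only fibroblast marker called lower in iPSC, where Col3a1 had a change of -0.51 that did not pass (0.253). Lum was above background in the null-labelled arrays alone and at least 1.51-fold higher there (limma adjusted p = 5.3e-05). These markers were named after their values were seen. The part of these markers in the results below was not tested. Of the fibroblast markers, which feeder cells would bring, Postn was on no array, and 1 marker stood apart in 1 sample: Thy1 was at 4.73 in Tbx3-high replicate 2 and between 0.74 and 1.13 on the other mESC arrays.

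Tbx3 itself was read by 1 probe. Its level was 5.75, 5.76, 5.73 and 5.72 in the Tbx3-low samples and 7.05, 7.07, 7.12 and 7.03 in the Tbx3-high samples, a rise of 1.33 ± 0.08 (SE, limma adjusted p = 7.3e-07). In iPSC it was 5.51 and 5.48 in the samples labelled null and 5.0 and 5.35 in the wild type, so it was not lower under the null label (0.32 ± 0.11, limma adjusted p = 0.0482). Of 15 alternatives 9 ended that last call, leaving out either null sample or wild-type replicate 1 among them. The labels do not say what the null allele removes, so the probe does not check the label, and these samples are called arrays labelled null.

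**Figure D1:**
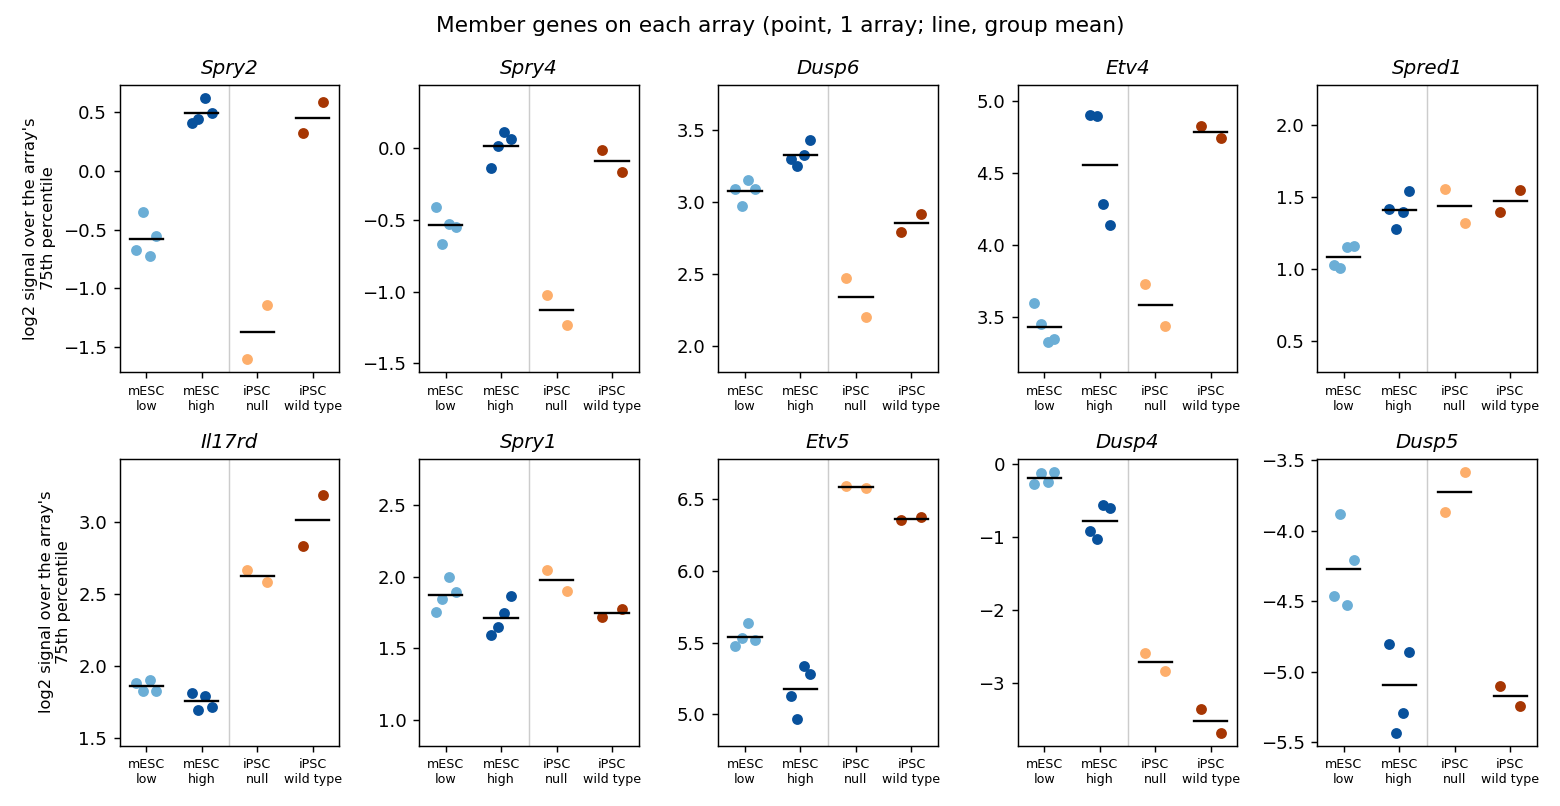
Level of the 10 genes on each of the 12 arrays (y axis, log2 signal over the array's 75th percentile, each panel with its own range); points are arrays, lines group means, and the vertical line parts the mESC slide from the iPSC slide. Spry2, Spry4, Dusp6 and Etv4 are higher in Tbx3-high mESC and in wild-type iPSC, and Dusp4 and Dusp5 are lower there, with Dusp5 near background in mESC.

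The first comparison asked how these genes differed between mESC with much and with little Tbx3. In Tbx3-high cells Etv4 rose 2.19-fold, Spry2 2.10-fold and Spry4 1.47-fold, and Spred1 and Dusp6 rose by 1.25-fold and 1.19-fold. Dusp4 and Etv5 fell 1.51-fold and 1.29-fold, Spry1 and Il17rd did not pass the test, and Dusp5 was too dim to be tested. The genes of the set therefore did not move as 1 block, since 5 rose and 2 fell of the 9 tested. Of all 15186 genes tested 31.6% passed, 17.4% higher and 14.2% lower (of 30691 probes, 25.9%). Groups were free of overlap in 36.3% of all genes and in 8 of the 9 here. The median change of the 9 was 0.25, against 0.04 over all genes.

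Spry2 and Spry4 encode Sprouty proteins, inhibitors of receptor tyrosine kinase signalling. Spry2 (chr14:106291845-106291904, minus strand, mm9) was at -0.68, -0.35, -0.72 and -0.56 in the Tbx3-low samples and at 0.40, 0.44, 0.62 and 0.50 in the Tbx3-high samples. The groups were separated by more than the range within either, and the rise was 1.07 ± 0.12 (SE, adjusted p = 7.9e-05). Spry4 (chr18:38745923-38745982, minus strand) was at -0.41, -0.67, -0.53 and -0.55 in the low and at -0.14, 0.01, 0.11 and 0.06 in the high samples, a rise of 0.55 ± 0.09 (adjusted p = 0.00072). All 4 high samples lay above all 4 low samples, and the call ended only when slide row 1 was taken alone (adjusted p = 0.0871), among 22 alternatives.

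Spry1, the remaining Sprouty gene of the set (chr3:37543403-37543462, plus strand), went the other way in its values. It stood at 1.75, 1.84, 2.0 and 1.90 in Tbx3-low and at 1.60, 1.65, 1.75 and 1.86 in Tbx3-high samples, groups that overlapped. The change of -0.16 ± 0.08 did not pass (adjusted p = 0.19).

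Spred1 encodes a Sprouty-related protein that brings neurofibromin, a Ras inactivator, to the membrane. Its brightest probe (chr2:117005906-117005965, plus strand) read 1.03, 1.01, 1.15 and 1.16 in the low and 1.42, 1.27, 1.40 and 1.54 in the high samples, without overlap. The rise was 0.32 ± 0.08 (adjusted p = 0.0153), and a second probe of the same transcript (chr2:117004952-117005011) gave 0.38 ± 0.08 (adjusted p = 0.00432). The call of the brightest probe ended with scaling on the median (0.115), without the filter on dim probes (0.0533) and in either slide row alone (0.101 and 0.106). The last probe, for another Spred1 transcript, lay near background in mESC, above it on 3 of 4 arrays in each group, and was not tested there.

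Il17rd encodes a transmembrane antagonist of FGF receptors and ERK. Its probe (chr14:27920311-27920370, plus strand) read 1.88, 1.83, 1.90 and 1.83 in Tbx3-low and 1.81, 1.69, 1.79 and 1.71 in Tbx3-high samples. Every high sample lay below every low sample, yet the change was only -0.11 ± 0.08, with a 95% confidence interval from -0.28 to 0.07, and did not pass (adjusted p = 0.369).

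Among the phosphatases, Dusp6, which acts on ERK in the cytoplasm, and Dusp4, an ERK phosphatase of the nucleus, moved apart. Dusp6 (chr10:98729985-98730044, plus strand) was at 3.09, 2.97, 3.16 and 3.09 in Tbx3-low and at 3.30, 3.25, 3.33 and 3.43 in Tbx3-high samples. The groups did not overlap, but the rise of 0.25 ± 0.08 (adjusted p = 0.0367) was small. Its call held in 9 of 22 alternatives, with adjusted p-values from 0.0184 to 0.228, and ended in the fit with a replicate block (0.0663) and without any of low replicates 1, 2 and 4 or high replicates 1, 3 and 4 (0.0629 to 0.101). Dusp4 (chr8:35882045-35882104, plus strand) was at -0.28, -0.12, -0.25 and -0.11 in the low and at -0.93, -1.03, -0.57 and -0.60 in the high samples. It fell by 0.59 ± 0.12 (adjusted p = 0.00443) with no overlap, and the fall was no longer called in slide row 2 alone (0.0673).

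Dusp5, a nuclear ERK phosphatase that is itself an early ERK target, was near background (chr19:53615682-53615741, plus strand). Its values were -4.46, -3.88, -4.53 and -4.20 in Tbx3-low samples, above background on 3 of 4 arrays, and -4.80, -5.43, -5.29 and -4.86 in Tbx3-high samples, above it on 1. It was therefore not tested in the main comparison. Without the filter on dim probes the values differed by -0.83 ± 0.19 (limma adjusted p = 0.0194).

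The ETS genes differed in direction as well. Etv4 (chr11:101631057-101631116, minus strand) was at 3.60, 3.45, 3.32 and 3.35 in Tbx3-low samples and at 4.91, 4.90, 4.29 and 4.14 in Tbx3-high samples, a rise of 1.13 ± 0.17 (adjusted p = 0.00065). Its other probe (chr11:101631322-101631381) read 1.39, 1.31, 1.21 and 1.08 against 3.02, 2.95, 1.99 and 1.85, a rise of 1.21 ± 0.24 (adjusted p = 0.00373). On both probes the high samples fell into a brighter and a dimmer pair, and both pairs lay above every low sample. Etv5 (chr16:22381387-22381446, minus strand) was at 5.48, 5.53, 5.63 and 5.52 in the low and at 5.13, 4.97, 5.33 and 5.28 in the high samples. It fell by 0.36 ± 0.08 (adjusted p = 0.00831) without overlap, and the call ended in slide rows 1 and 2 alone (0.0607 and 0.133).

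The pairs of Etv4 followed the rows of the slide. Replicates 1 and 2 of both groups lay in slide row 1 and replicates 3 and 4 in row 2, so the change could be read within each row. Etv4 rose by 1.38 in row 1 and by 0.88 in row 2, and by 1.63 and 0.78 on its other probe. Dusp4 fell by 0.78 in row 1 and by 0.41 in row 2, and Etv5 fell by 0.46 and by 0.27, whereas Spry2 rose by 0.94 in row 1 and by 1.20 in row 2. Directions were the same in both rows for these genes. What else set the samples of row 1 apart from those of row 2 was not tested.

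**Figure D2:**
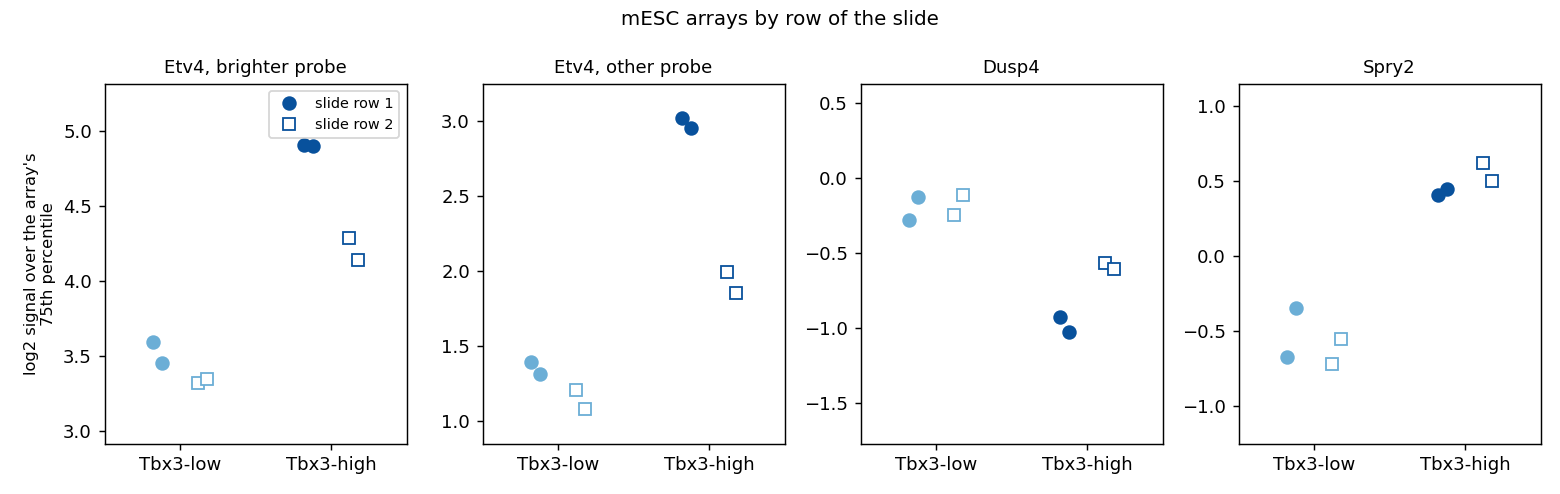
Level of Etv4 (both probes), Dusp4 and Spry2 on the 8 mESC arrays by group (x axis), in log2 signal over the array's 75th percentile; filled circles are slide row 1 and open squares row 2. The Tbx3-high arrays of row 1 lie 0.69 above those of row 2 on the brighter Etv4 probe and 1.06 above them on the other, while the Tbx3-low arrays of the rows differ by 0.19 and 0.21.

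The second comparison set iPSC labelled Tbx3 null against wild-type iPSC. Under the null label Spry2 was 3.53-fold, Etv4 2.31-fold, Spry4 2.05-fold, Dusp6 1.43-fold and Il17rd 1.31-fold lower. Dusp5 was 2.72-fold and Dusp4 1.75-fold higher. Spry1, Etv5 and Spred1 did not pass. All 10 genes were tested, and 2 rose and 5 fell. Of all 16828 genes tested 35.6% passed, 20.2% higher and 15.4% lower (of 36712 probes, 28.3%), and groups of 2 and 2 arrays did not overlap for 71.9% of them, so the lack of overlap in 9 of the 10 genes here says little. The median change of the 10 was -0.21, against 0.07 over all genes.

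Spry2 was at -1.60 and -1.14 in the null-labelled arrays and at 0.32 and 0.59 in the wild type, and fell by 1.82 ± 0.17 (SE, adjusted p = 3.7e-05). For Spry4 the values were -1.02 and -1.23 against -0.01 and -0.17, and it fell by 1.04 ± 0.12 (adjusted p = 0.00015). Etv4 read 3.73 and 3.44 against 4.83 and 4.75, a fall by 1.21 ± 0.25 (adjusted p = 0.00516). The groups did not overlap for any of these 3 genes, and their calls, like that of Dusp5 below, held in each of 15 alternatives. The other Etv4 probe fell by 1.07 ± 0.35 (adjusted p = 0.0462).

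Smaller falls were less secure. Dusp6 was at 2.47 and 2.20 under the null label and at 2.79 and 2.91 in the wild type, a fall by 0.52 ± 0.11 (adjusted p = 0.00637) that was no longer called without null replicate 2 (0.0507), with scaling on the median (0.0767) or on the iPSC arrays alone (0.0724). Il17rd was at 2.67 and 2.58 against 2.84 and 3.19, a fall by 0.39 ± 0.11 (adjusted p = 0.0276). That call held in 8 of 15 alternatives. It ended with scaling on the median (0.192), without the dim filter (0.063) and on the iPSC arrays alone (0.164). It also ended without null replicate 1 (0.0678), null replicate 2 (0.125) or wild-type replicate 2 (0.201, change -0.21) and in the fit with a replicate block (0.0669). The lower share of spots above background on the null-labelled arrays, given above, moved with these falls, and its part in them was not tested.

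Dusp5 and Dusp4 were the genes of the set that rose. Of the phosphatases outside it, Dusp7, Dusp8 and Dusp9 rose too, the nuclear Dusp2 did not pass and Dusp1 fell (values below). Dusp5 was at -3.87 and -3.58 in the null-labelled and at -5.10 and -5.24 in the wild-type arrays, all well above background, a rise of 1.45 ± 0.26 (adjusted p = 0.00205). Its size depended on the handling of background near the detection limit, at 0.68 after normexp correction and 0.64 with the deposited series table, while the call held in all 15 alternatives. Dusp4 was at -2.60 and -2.84 against -3.36 and -3.69, a rise of 0.81 ± 0.18 (adjusted p = 0.00677) that was no longer called without null replicate 1 (0.0572) or wild-type replicate 2 (0.0593).

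Etv5 read 6.59 and 6.58 under the null label and 6.35 and 6.38 in the wild type, a change of 0.22 ± 0.12 that did not pass (adjusted p = 0.206) and was -0.01 with the series table's values. Spry1 read 2.05 and 1.90 against 1.72 and 1.77 (0.23 ± 0.12, adjusted p = 0.179). Spred1 read 1.56 and 1.32 against 1.40 and 1.55, groups that overlapped, and its change of -0.04 ± 0.12 had a 95% confidence interval from -0.30 to 0.23 (adjusted p = 0.874). The other Spred1 probes gave -0.09 (adjusted p = 0.6) and, for the dim transcript, -0.59 (adjusted p = 0.32).

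**Figure D3:**
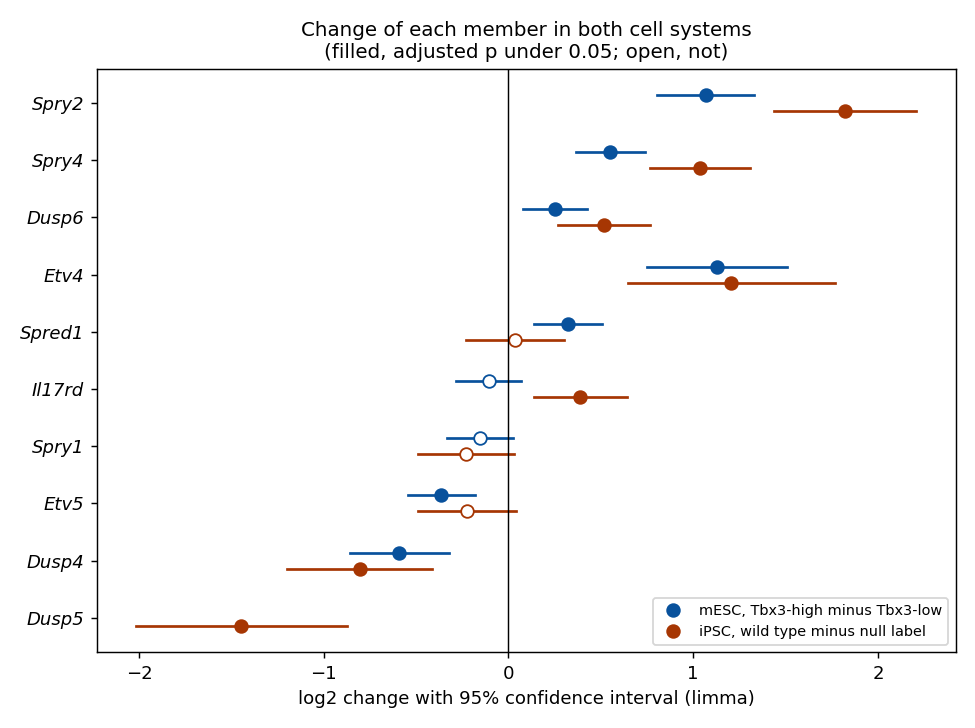
Change of each gene with more Tbx3 by label (x axis, log2 change with its 95% confidence interval from limma): Tbx3-high minus Tbx3-low mESC in blue, and wild type minus null-labelled iPSC in red. Filled points passed an adjusted p of 0.05. Spry2, Spry4, Dusp6 and Etv4 lie to the right of 0 and Dusp4 to the left in both systems, Dusp5 has no mESC point because it was not tested there, and Spred1 passed in mESC alone and Il17rd in iPSC alone.

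The comparisons were then set side by side in the direction of more Tbx3 by label. Of the 9 genes tested in both, 5 passed in both, and all 5 had opposite signs in Tbx3-high minus low and in null minus wild type. Over all 15032 genes tested in both, 2459 (16.4%) passed in both, and 1763 of these (71.7%) had opposite signs. The 5 genes were Spry2, Spry4, Dusp6 and Etv4, higher with more Tbx3 by label, and Dusp4, lower with it. Passed or not, the signs were opposite for 8 of the 9, Il17rd being the exception, against 55.2% of all genes. For Spred1 and Etv5 among the 8, the iPSC change did not pass and its sign reversed in at least 1 alternative. These comparisons share no array, although they share 1 fit and its estimate of the spread.

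A further contrast tested whether the change differed between the systems, as (high minus low) minus (wild type minus null). It passed for 3 of the 10 genes, all with a negative contrast. Of all 16982 genes 29.6% passed it, 17% above and 12.6% below 0 (of 37071 probes, 23% in all, 12.8% above and 10.1% below). Spry2 changed by 0.75 ± 0.21 less in mESC than in iPSC (contrast -0.75, adjusted p = 0.0288), and Spry4 by 0.49 ± 0.15 less (contrast -0.49, adjusted p = 0.0411, and 0.0771 in the fit with a replicate block). Il17rd had a contrast of -0.50 ± 0.14 (adjusted p = 0.0282, and 0.0697 with the block), its change being -0.11 in mESC and 0.39 for wild type minus null. With the block, 1 of the 3 calls was left, that of Spry2.

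These calls were fragile. Scaling on the median or dropping the filter on dim probes left none of them, and so did leaving out wild-type replicate 2 (adjusted p = 0.12 for Spry2, 0.0578 for Spry4 and 0.106 for Il17rd, whose contrast was then -0.32). Spry2 was also lost without Tbx3-high replicate 1 (0.0505) or null replicate 1 (0.129). Spry4 was lost without any of low replicates 1, 3 and 4, high replicates 1, 2 and 4, null replicate 2 or wild-type replicate 1 (0.0575 to 0.164). Il17rd was lost without high replicate 4 (0.0522), null replicate 1 (0.0581) or null replicate 2 (0.0935). Other settings added calls, up to 4 genes in all: Dusp6, whose contrast was -0.27 ± 0.14 (adjusted p = 0.207), passed with quantile normalization (-0.40, 0.0287) and with the series table (-0.47, 0.017). For Spred1, called in mESC alone, the contrast of 0.29 ± 0.15 did not pass (adjusted p = 0.198), nor did that of Etv5 (-0.14 ± 0.15, adjusted p = 0.558) or Dusp5 (0.62 ± 0.31, adjusted p = 0.198), although Dusp5 passed with normexp correction (0.51, 0.0413). Etv4 had a contrast of -0.08 ± 0.31 with a 95% confidence interval from -0.76 to 0.61.

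Across the 12 arrays, with each cell system centred on its own mean, the genes fell into patterns that repeat the group differences above. Spry4 correlated with Dusp6 at r = 0.93 and with Spry2 at 0.92. Etv4 and Etv5, close relatives, ran opposite to each other (r = -0.94), and Etv5 ran with Dusp4 (0.88). Il17rd correlated with no other gene of the set beyond 0.54. These values describe 12 arrays that share group, slide and scaling.

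**Figure D4:**
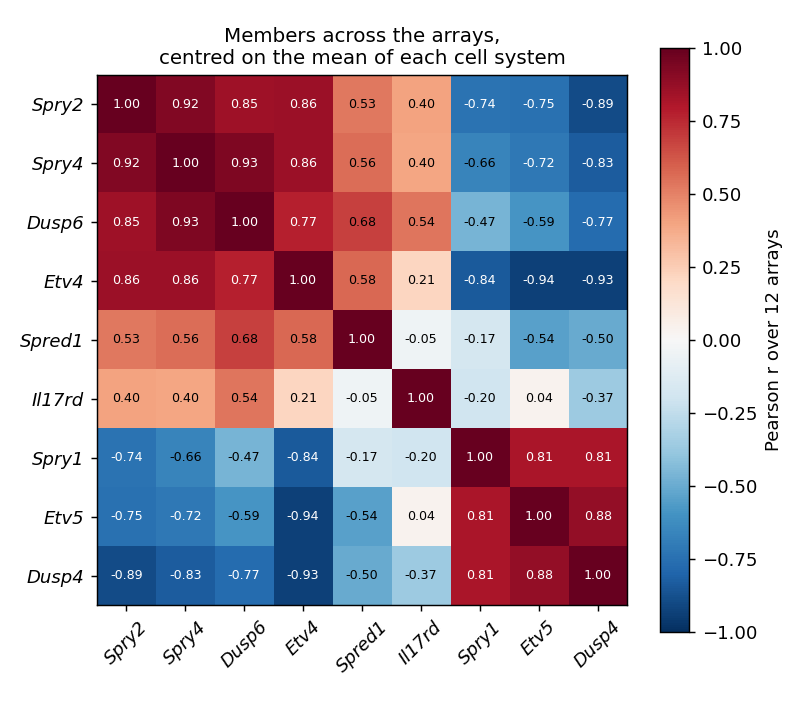
Pearson correlation between the 9 genes tested in both systems over the 12 arrays, after centring each cell system on its mean (colour and printed value; Dusp5 is left out because it was not tested in mESC). Spry2, Spry4, Dusp6 and Etv4 form a block of values from 0.77 to 0.93, Spry1, Etv5 and Dusp4 a block from 0.81 to 0.88, and values between the blocks are negative.

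Of 15017 other genes tested in both systems, the ones most like each of the 9 over the 12 centred arrays were picked. For Spry2 they were Agtpbp1 (r = 0.989), a carboxypeptidase that trims tubulin, and Tmem130 (0.988), and for Spry4 the prostaglandin transporter Slco2a1 (0.981) and Ly6k (0.980). Etv4 was most like the kallikrein-related gene Klk13 (0.973) and Eomes (0.971), a T-box factor of early embryonic lineages that changed by 1.39 in mESC and by -1.66 in iPSC. Dusp6 was closest to Npl (0.969) and Cfap45 (0.968), Dusp4 to Rragc (0.974) and Hpn (0.972), and Etv5 to Tex15 (0.986) and Ywhag (0.973). For Spred1 they were the mitotic kinesin gene Kif20a (0.967) and the centromere gene Cenph (0.956), for Il17rd Zyx (0.965) and Leng9 (0.931), and for Spry1 Klhl5 (0.944) and Dpy19l1 (0.936). These genes were picked as the highest of a long search over few arrays, so their values are a description.

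The rest of the pathway was read from 6 lists of 62 genes, of which 60 were tested in mESC and 59 in iPSC. In mESC 13 rose and 17 fell, and in iPSC 13 rose and 9 fell under the null label. The median change was -0.0043 and 0.11, against 0.04 and 0.07 over all genes. Over all genes 31.6% passed in mESC (17.4% higher, 14.2% lower) and 35.6% in iPSC (20.2% higher, 15.4% lower). The contrast between the systems passed for 29.6% of all genes, 17% above and 12.6% below 0. Of the 60 listed genes tested for it, 10 passed above and 12 below 0.

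Of the other feedback genes, Spry3 and Spred3 were not well above background on any array and not tested. Spred2 rose by 0.25 ± 0.08 in Tbx3-high mESC (adjusted p = 0.0491) and fell by 0.52 ± 0.12 under the null label (adjusted p = 0.0089). The mESC call ended without any of low replicates 1, 2 and 3 or high replicates 1, 3 and 4 (0.0719 to 0.133) and the iPSC call without wild-type replicate 2 (0.0504). All 7 other MAP kinase phosphatases passed in mESC, 2 up and 5 down. Dusp8, a phosphatase of stress kinases, fell by 1.28 ± 0.19 (adjusted p = 0.0006), Dusp2, a nuclear phosphatase, by 1.16 ± 0.09 (6.3e-06), and Dusp9, an ERK phosphatase of embryonic stem cells, by 0.79 ± 0.09 (8.7e-05). Dusp10, another stress kinase phosphatase, rose by 1.02 ± 0.19 (0.00228), with 2 of the 4 Tbx3-low arrays well above background, but did not pass with normexp correction (0.121). Dusp4 thus fell in Tbx3-high mESC together with 5 of these phosphatases, and Dusp6 rose with Dusp10 and Dusp16.

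In iPSC 3 of these 7 phosphatases rose under the null label and 1 fell. Dusp8 rose by 1.02 ± 0.28 (adjusted p = 0.0219), Dusp7 by 0.68 ± 0.13 (0.00327) and Dusp9 by 0.51 ± 0.13 (0.0144). The Dusp8 call ended without null replicate 1 (0.132) or wild-type replicate 1 (0.183, change 0.58) and in the fit with a replicate block (0.0526). That of Dusp9 ended without null replicate 1 (0.117) or either wild-type replicate (0.0555 and 0.0741). Dusp1, an immediate early phosphatase, fell in both comparisons, by 0.44 ± 0.11 in Tbx3-high mESC (0.0112) and by 1.12 ± 0.16 under the null label (0.00044), and its contrast between the systems was -1.56 ± 0.19 (0.00032). Dusp2 also differed between the systems (-1.32 ± 0.16, adjusted p = 0.00033), with a change of -0.15 in iPSC that did not pass.

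Among 8 other ETS factors, 4 rose and 1 fell in mESC. Etv1, the remaining gene of the PEA3 group, rose by 1.55 ± 0.08 (adjusted p = 2.9e-07), as Etv4 did, while Etv5 fell. Erf, an ETS repressor that ERK removes from the nucleus, rose by 0.93 ± 0.15 (0.00082), Ets1 fell by 0.87 ± 0.14 (0.0012) and Elk3 rose by 0.76 ± 0.09 (8.2e-05). In iPSC, Ets2 fell by 0.76 ± 0.15 (0.00391) and Elk3 rose by 0.46 ± 0.12 (0.0184), the latter not without null replicate 1 (0.0519), null replicate 2 (0.0918) or wild-type replicate 1 (0.145). Etv1 was at -0.29 ± 0.11 there (0.0695), and passed with normexp correction (0.0412), quantile normalization (0.0164), the series table (0.00746) or 1 probe per gene (0.0421), and without wild-type replicate 1 (-0.41, 0.0421). The contrast between the systems passed for Etv1 (1.26 ± 0.13, adjusted p = 0.00013), Elk3 (1.21 ± 0.15, 0.00035) and Erf (0.96 ± 0.26, 0.0254), the last not without any 1 of the iPSC arrays (0.0531 to 0.104).

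The immediate early and growth genes did not share a direction in mESC, where 4 of 11 rose and 3 fell. Egr1, a zinc finger factor induced by ERK within minutes, rose by 0.59 ± 0.12 (adjusted p = 0.00536), whereas Fosl1, an AP-1 subunit stabilised by ERK, fell by 0.77 ± 0.15 (0.00378) and Ier3 by 0.55 ± 0.13 (0.00909). The Fosl1 fall did not pass with normexp correction (0.141). In iPSC 3 of 10 fell under the null label. Phlda1 fell by 1.76 ± 0.17 (3.4e-05) and Myc by 0.72 ± 0.13 (0.0018), while Phlda1 rose by 0.48 in Tbx3-high mESC (0.00986). Fos was not well above background in the null-labelled arrays and at least 2.03-fold lower there (limma adjusted p = 4.3e-05), a call that normexp correction (0.353) and the series table (0.0649) did not give. In the wild type Fos read -4.26 and -4.47, well above background but dim. Near background in both iPSC groups, Egr1 read -5.30 and -5.27 under the null label and -4.41 and -5.12 in the wild type. Egr1, well above background on 1 of the 2 null-labelled arrays, was at -0.52 ± 0.18 (0.059), and passed without wild-type replicate 2 (-0.87, 0.00079) and in the fits with 1 value per gene (0.0395 and 0.0397). Contrasts between the systems passed for 6 of the 11, with 1 above and 5 below 0, against 17% and 12.6% of all genes. They were below 0 for Phlda1 (-1.28 ± 0.20, 0.00158), Myc (-0.53 ± 0.15, 0.0321) and Fosl1 (-0.95 ± 0.28, 0.0338), the last lost in 8 of 12 fits that left out 1 array (0.0504 to 0.144) and in the fit with a replicate block (0.0543). The fitted Fos contrast was also below 0 (-0.85 ± 0.15, 0.00334) but changed sign with normexp correction and with the series table. Of the other 2, named after their values were seen, Ier2 had a contrast above 0 (0.80 ± 0.16, 0.00545) and Ccnd1 one below it (-0.55 ± 0.17, 0.0399), the latter lost with scaling on the median (0.141), without the dim filter (0.0812) and in 9 of 12 fits that left out 1 array (0.0623 to 0.169).

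The kinases and adaptors between receptor and ERK moved little in mESC, where 20 of 24 did not pass. Mapk3, which encodes an ERK protein, changed by 0.06 ± 0.09 and did not pass (adjusted p = 0.686). Braf fell by 0.39 ± 0.10 (0.0158), and the adaptor Shc1 rose by 0.34 ± 0.10 (0.0239), although not without low replicate 1, low replicate 2 or high replicate 1 (0.0632 to 0.0658). In iPSC 6 of 24 rose under the null label, where 20.2% of all genes did. Mapk3 rose by 0.74 ± 0.13 (0.00187), Shc1 by 0.56 ± 0.14 (0.0136) and Hras by 0.47 ± 0.12 (0.0169). Shc1 and Hras were not called there without null replicate 1 or wild-type replicate 1 (0.0887 to 0.143). The contrast passed for Shc1 (0.90 ± 0.17, 0.00442), Mapk3 (0.80 ± 0.16, 0.00538) and Rps6ka1 (0.54 ± 0.15, 0.0236), an ERK-activated kinase, the last not without either null array or wild-type replicate 1 (0.0597 to 0.115).

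At the head of the cascade, Fgf4, the ligand that embryonic stem cells make, fell by 0.35 ± 0.07 in Tbx3-high mESC (adjusted p = 0.00356) and was higher by 0.31 ± 0.10 under the null label (0.0377), a call lost without any 1 of the iPSC arrays (0.0606 to 0.207). Of the 9 FGF ligands and receptors, 1 rose and 5 fell in mESC, and 3 rose and 3 fell in iPSC. Fgf5, a ligand of the post-implantation epiblast, was at least 7.18-fold lower in Tbx3-high mESC (limma adjusted p = 1.4e-06) and at 0.03 ± 0.36 in iPSC (0.962). Fgf15 fell by 1.36 ± 0.07 in mESC (5.9e-07) and rose by 0.53 ± 0.11 under the null label (0.00384). Fgfrl1, an FGF receptor without a kinase domain, fell in both, by 0.42 ± 0.08 (0.00202) and 0.38 ± 0.11 (0.0238), and Fgfr3 fell under the null label by 1.56 ± 0.15 (4.7e-05). Fgfr2 fell by 0.38 ± 0.10 in mESC (0.0208) and rose by 0.47 ± 0.15 under the null label (0.0423), calls that ended without low replicate 1 or 2 or high replicate 1 or 4 (0.0509 to 0.0605) and without any 1 of the iPSC arrays (0.0754 to 0.217). These Fgfr2 values are from the brighter of its 2 probes, and the mean of both rose by 1.91 under the null label (limma adjusted p = 9.8e-07). Fgfr1, the main FGF receptor of these cells, did not pass in mESC (0.08 ± 0.07, 0.441) or iPSC (0.14 ± 0.10, 0.359). Spry2, Spry4, Dusp6 and Etv4 were higher in Tbx3-high mESC, where Fgf4 was lower, Fgfr1 did not pass and Fgfr4 rose. Fgfr4, named after its values were seen, rose there by 0.27 ± 0.09 (limma adjusted p = 0.0448). It fell by 0.44 ± 0.13 under the null label (0.0291). The part of these ligands and receptors in the changes of the set was not tested.

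The size of several of these changes moved with the processing. With normexp correction the mESC changes were 0.24 for Dusp10 and -0.21 for Fosl1, neither called, and -0.44 for Dusp8, -0.31 for Ets1, -0.77 for Fgf15 and -1.21 for Fgf5, all called. With the series table they were 0.30, -0.35, -0.63, -0.46 and -1.69 for Dusp10, Fosl1, Dusp8, Ets1 and Fgf5, all called. The Fgfr2 fall in mESC did not pass with normexp correction (0.0861), nor the Ets1 fall in slide row 2 alone (0.0516). In iPSC, Lum changed by 0.60 with normexp correction and 0.50 with the series table, against a fitted 2.58, and Fgf4 by 0.09 and 0.10 with quantile normalization and the series table, not called (0.504 and 0.43). The contrast of Rps6ka1 did not pass with normexp correction (0.0576), quantile normalization (0.0894), scaling on the median (0.0612), no dim filter (0.0543) or the series table (0.218). That of Fosl1 did not pass with the same settings either (0.854, 0.0756, 0.0654, 0.0628 and 0.0827, in that order). The mean over a gene's probes gave changes in iPSC of 1.91 for Fgfr2, 0.94 for Hras and -0.82 for Fgfr3, all called (limma adjusted p = 9.8e-07, 0.00192 and 0.00562). The brightest probe of each gave 0.47, 0.47 and -1.56.

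**Figure D5:**
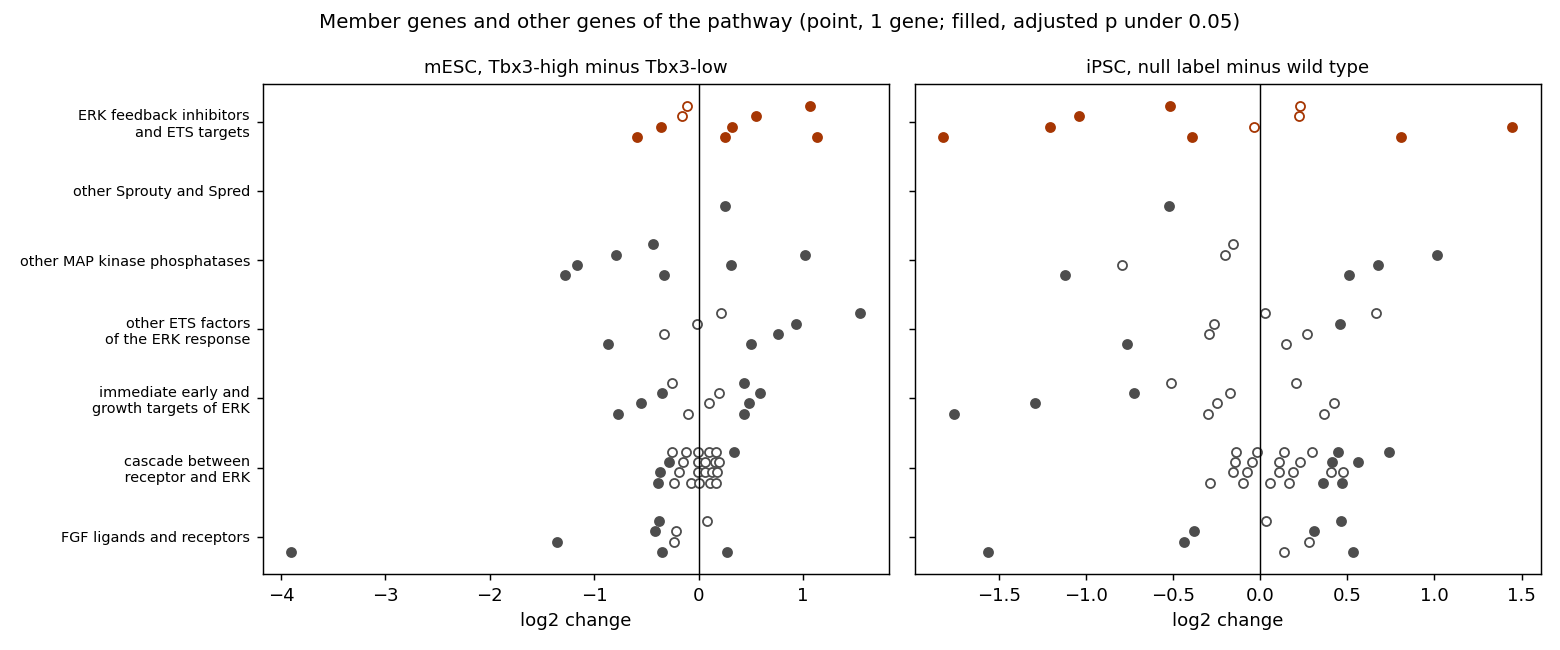
Change of the 10 genes (top row, red) and of the tested genes of 6 other pathway lists (points, 1 gene each; filled passed an adjusted p of 0.05) in Tbx3-high minus Tbx3-low mESC (left) and null-labelled minus wild-type iPSC (right), on log2 axes of different span. Cascade genes lie close to 0 in mESC, feedback genes, phosphatases and ETS factors spread to both sides, and the leftmost mESC point is Fgf5 and one of the left iPSC points Fos, fitted values of probes that are near background in 1 group.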

How the data were processed

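Total RNA, extracted with RNeasy kits and labelled with Cy3 from 50 ng per sample, was hybridised to 12 Agilent arrays of 1 colour, per the labels' protocols. Agilent Feature Extraction 10.7.3.1 made the spot intensity values, per the file headers, which give probe positions in mm9: a background-subtracted processed signal, and beside it the mean signal and local background, none scaled between arrays. The deposited series table is in log2, and its scaling and background handling stay unknown. The columns followed the log2 mean signal at r of at least 0.9988, with medians of 6.61 in mESC and 6.58 to 6.59 in iPSC, and it served as an alternative.

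From these, log2 processed signal minus the array's 75th percentile was computed, spots of a probe were averaged after removing spots marked as outliers (none for these 10 genes), and a probe was tested when every array of at least 1 compared group had it well above background. All 12 arrays entered 1 limma 3.58.1 fit (R 4.3.3) of 4 group means, tested on simulated data, with Benjamini-Hochberg adjustment over all probes (30691, 36712 and 37071 in the 3 comparisons). A gene stands for its brightest probe. Where a group is not well above background, the fold is a lower bound against the lowest signal above background on each array, written "at least". Probe names came from RefSeq by accession (27656), symbol (3401) or synonym (307), and 24317 probes stayed unnamed. Per list and comparison, the 3 largest changes past the threshold were named, with Fgf4, Fgf5, Fgfr1, Fgfr2, Egr1, Myc, Mapk3, Dusp9 and Etv1, and some values under this rule are not reported here. The genes, lists and tests were chosen with earlier results of these data known.

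Same-numbered mESC samples of the low and high groups deviated together (r = 0.198, 0.294, 0.215 and 0.138 over 27967 probes), so the replicate number was used as a block. Arrays of different number in the same slide row deviated together too (r = 0.0499 to 0.412), and those in different rows did not (-0.384 to -0.091). Deviations were taken from the group mean and cancel within a group, so values within and across rows are not independent. The labels do not say what the number marks, and these values do not set it apart from the slide row. In iPSC the value was 0.007, and with groups of 2 arrays the pairs of different number can only mirror it (-0.007). Alternatives were background correction, scaling, the series table, the filter, blocks, slide rows, array weights, 1 cell system alone, the probes of a gene, and leaving out each array. The number of arrays limits the precision.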

Additional observations from a re-analysis of the deposited data

Results flagged for a closer look

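For 3 genes the change with more Tbx3 by label differed between the cell systems by a test of the difference itself, (high minus low) minus (wild type minus null). The value was -0.7538 for Spry2, -0.4866 for Spry4 and -0.4973 for Il17rd on the log2 scale. Spry2 and Spry4 moved in the same direction in both systems and further in iPSC, and Il17rd passed in iPSC alone. That 3 of 10 genes passed is a share close to the 29.6% of all genes tested. With a replicate block Spry4 (adjusted p = 0.0771) and Il17rd (0.0697) were not called, and scaling on the median left none of the 3. The systems lay on separate slides, so the difference between them and the slide cannot be told apart. Within the mESC groups of 4, no gene of the set had a sample far from the others by Dixon's criterion, and the iPSC groups of 2 cannot be judged this way.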

How the results depend on the processing

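Over the alternatives, 177 of 198 values of the 9 genes tested in mESC kept their direction and side of the threshold, and none reversed. For the 10 genes these counts were 134 of 150 in iPSC and 194 of 229 for the difference. Dusp5, not counted in mESC, was called there without the dim filter (-0.83, limma adjusted p = 0.0194) and without low replicate 3 (-0.91, 0.00665). It was not called in slide row 1 alone (-0.95, 0.113). Spry2 and Etv4 passed in all 22 mESC and all 15 iPSC alternatives. The number of genes of the set called was 7 in mESC, 3 in slide row 1 alone and 3 in row 2 alone (where 3875 and 3549 probes were called, against 7946, with fewer arrays) and 6 to 8 as single arrays were left out. In iPSC it was 5 to 7 as arrays were left out, and for the difference 0 to 3, with 4 under normexp, quantile normalization or the series table. For the difference it was 0 with scaling on the median, 0 without the dim filter and 1 with the replicate block. Scaling on the median moved the median iPSC change of all probes from 0.050 to 0.163, and the share of mESC calls that were higher from 55.9% to 44.6%. Probes called ran from 6633 to 7292 in mESC, 6952 to 8480 in iPSC and 5703 to 7957 for the difference as arrays were left out. The replicate block ended the calls of Dusp6 in mESC, Il17rd, Tbx3, Dusp8, Hras, Fgf4 and Fgfr2 in iPSC and Spry4, Il17rd and Fosl1 for the difference, gave one for Cdx2 in iPSC, and changed no other call among the genes named whose alternatives were read. Those of Fgfr4 and of the pluripotency and primitive endoderm markers were not read.

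The values that reversed did not pass in either setting, apart from Fos. In mESC, Mapk3 was at -0.0106 with the series table. In iPSC, Spred1 was at 0.0777 with scaling on the median, and from -0.1529 to 0.0827 as iPSC arrays were left out, above 0 without null replicate 2 (0.0827) or wild-type replicate 2 (0.0420). Etv5 was at -0.0110 with the series table and Fgfr1 at -0.0082 after quantile normalization. Fgf5 ran from -0.2724 to 0.3389 as iPSC arrays were left out, below 0 without null replicate 1 (-0.2724) or wild-type replicate 2 (-0.1893). For the difference, Spry1 was at -0.0064 with normexp, -0.0359 with quantile normalization and -0.0934 with the series table. Spred1 was at -0.0066 and Etv4 at 0.0300 with the mean of a gene's probes. Etv4 ran from -0.2212 to 0.0707 as arrays were left out, above 0 without high replicate 3 (0.0159), high replicate 4 (0.0644) or null replicate 2 (0.0707). Fos was at 0.2413 with normexp and 0.0429 with the series table, against -0.85. The cause was not tested. Counts of the pathway lists moved by up to 4 genes. Signals near background limit Dusp5 and the dim Spred1 probe.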
